A study of Mus musculus with 6 samples.

Results

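MHC class I antigen processing was followed through 10 genes in mouse eosinophils treated with extracellular vesicles (EVs) from T helper 2 (Th2) cells. They were chosen by name for their role in the pathway, with earlier results of these data known. All 10 were among the 16254 genes of the deposited count table. They were the classical heavy chains H2-K1 and H2-D1, the light chain B2m, the peptide transporter subunits Tap1 and Tap2, the loading factor Tapbp (tapasin), the immunoproteasome subunits Psmb8, Psmb9 and Psmb10, and the transactivator Nlrc5.

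Bulk RNA sequencing was performed on eosinophils grown from wild-type C57BL/6 bone marrow with FLT3 ligand and stem cell factor and then with IL-5. On the last day of that culture, 3 preparations received EVs isolated by size exclusion chromatography from activated Th2 cells (EV), and 3 received medium that had held no cells but had been taken through the same isolation (Media, the sham control), each for 24 hours. Both groups had the same strain, the same genotype and, before treatment, the same growth factors. The cells were whole cultures rather than a sorted population. The authors reported that EVs from activated Th2 cells carried the cytokine IL-3 and raised eosinophil survival. The part of either in the values below was not tested. The labels call the samples biological replicates and do not say whether they came from separate mice, so that the p-values measure the spread between these samples. Libraries held between 23697620 and 37874426 counts.

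Class I molecules display peptides from the inside of a cell to CD8+ T cells. Proteins are cut by the proteasome, in which interferon can replace the constitutive catalytic subunits with those of the immunoproteasome. The TAP transporter carries the peptides into the endoplasmic reticulum, where tapasin helps to load them onto a heavy chain paired with B2m. NLRC5 is the transactivator best known for driving transcription of these genes, and it acts with factors that bind sites close to their starts.

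The stretches ahead of the heavy chain and B2m genes are shown because these 3 genes encode the displayed complex itself. Sequences are from RefSeq (GRCm38.p6) and are written 5′ to 3′ on the strand of the gene, and positions are counted back from the annotated start. Of the 10 genes, 8 had a window of 250 bases ahead of a start in the RefSeq table. The windows of H2-K1 (chr17:34000348-34000597, minus strand, the first of 2 listed starts) and B2m (chr2:122147437-122147686, plus strand) are given whole. Capitals mark matches to the NF-kB motif on the strand of the gene, and to a short IRF motif (AANNGAAA). They also mark the longer interferon-stimulated response element (ISRE), 2 GAAA blocks with 2 bases between them, which contains the short IRF motif. The start of a cAMP response element (TGACG) and the reverse complement of the CCAAT motif (ATTGG) are in capitals too.
H2-K1: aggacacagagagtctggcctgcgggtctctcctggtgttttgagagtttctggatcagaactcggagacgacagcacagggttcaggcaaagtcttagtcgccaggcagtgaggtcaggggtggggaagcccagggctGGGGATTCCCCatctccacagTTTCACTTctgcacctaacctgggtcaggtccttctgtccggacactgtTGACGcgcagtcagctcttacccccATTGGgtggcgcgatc
B2m: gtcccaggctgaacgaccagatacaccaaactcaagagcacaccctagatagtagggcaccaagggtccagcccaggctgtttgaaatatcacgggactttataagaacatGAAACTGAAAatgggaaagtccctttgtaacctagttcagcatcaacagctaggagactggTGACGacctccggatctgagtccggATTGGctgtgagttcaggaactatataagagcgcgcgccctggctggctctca

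In H2-K1 the NF-kB matches were followed by a short IRF motif, and the same arrangement was found ahead of H2-D1. The 2 stretches of 29 bases were identical at 28 positions. The H2-K1 stretch is at chr17:34000430-34000458 (minus strand) and the H2-D1 stretch at chr17:35262923-35262951 (plus strand), and the latter lies within an exon of the longer H2-D1 transcript in GENCODE.
H2-K1: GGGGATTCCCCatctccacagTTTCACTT
H2-D1: GGGGATTCCCCatctcctcagTTTCACTT

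H2-K1, H2-D1 and B2m also shared TGACG followed, after a gap of 20 bases, by ATTGG. This spacing was noticed in these windows and then searched in all of them. It was present in 3 of the 8 windows of the pathway genes and, among 10 further MHC class I heavy chain genes with a window, in that of H2-M3. Of all 32851 windows, 30 held it (0.0913%, either strand). The 30 bases are at chr17:34000359-34000388 for H2-K1 (minus strand), chr17:35262993-35263022 for H2-D1, chr2:122147609-122147638 for B2m and chr17:37270188-37270217 for H2-M3 (plus strand for the last 3). Between the capitals, the heavy chains and B2m were less alike, with 23 of 30 bases identical between H2-K1 and H2-D1 and 13 of 30 between H2-K1 and B2m, capitals included.
H2-K1: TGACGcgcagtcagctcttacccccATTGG
H2-D1: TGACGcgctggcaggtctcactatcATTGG
B2m: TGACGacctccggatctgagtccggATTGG
H2-M3: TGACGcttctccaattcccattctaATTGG

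Among the 8 windows, the ISRE was found in B2m alone, the NF-kB motif in H2-K1 and H2-D1, and TTCNNNGAA (the gamma-activated sequence, GAS) in Psmb8 alone. Both strands were searched, except for the NF-kB motif (GGGRNNYYCC, with R for A or G and Y for C or T). That motif was searched on the strand of the gene alone. The B2m window holds ggaaagtccc after its ISRE, which is a match on the other strand. Over all windows, the ISRE was present in 2.98%, the short IRF motif in 21.3%, GAS in 7.02%, CCAAT in 33.8% and TGACG in 17.8%. The NF-kB motif was present in 5%, on the strand of the gene alone. A match is a description of the letters and not evidence of binding in these cells.

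**Figure D1:**
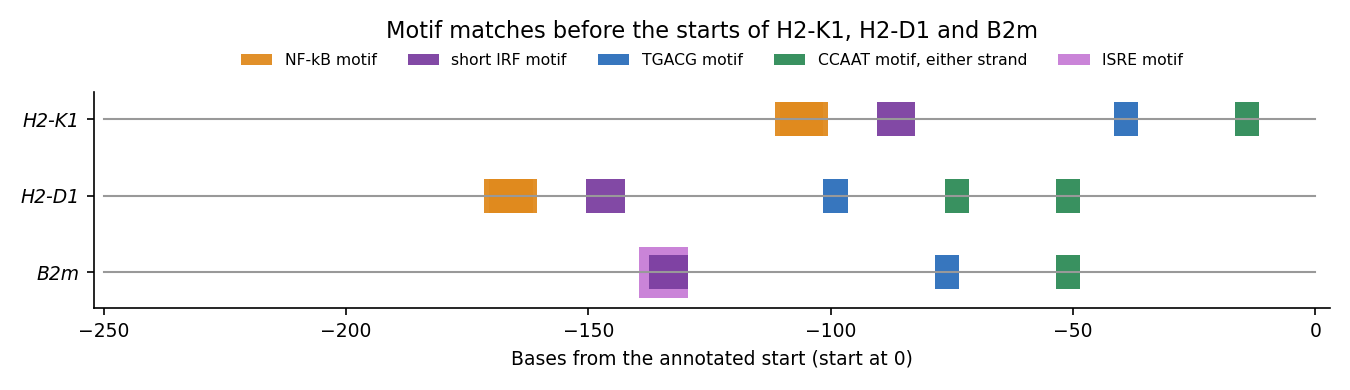
Position of motif matches (colored boxes) in the 250 bases ahead of the annotated starts of H2-K1, H2-D1 and B2m, with bases from the start on the x axis. NF-kB matches are shown for the strand of the gene alone. In all 3 genes a TGACG match precedes a CCAAT match at the same distance, at positions -41 and -16 in H2-K1, -101 and -76 in H2-D1 and -78 and -53 in B2m, and an IRF or ISRE match lies farther upstream.

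Of the 10 genes, 7 lie within the MHC on chromosome 17, Tapbp and H2-K1 toward one end and H2-D1 toward the other. In GENCODE vM21 (GRCm38), Psmb9 (chr17:34181987-34187764, minus strand), Tap1 (chr17:34187553-34197225, plus strand), Psmb8 (chr17:34197721-34201454, plus strand) and Tap2 (chr17:34203527-34216321, plus strand) follow each other in one block. The RefSeq starts of Psmb9 and Tap1 are 226 bases apart and face away from each other, so that their windows overlap. B2m is on chromosome 2 (chr2:122147686-122153083), and Psmb10 (chr8:105935735-105938444) and Nlrc5 (chr8:94434356-94527272) are on chromosome 8.

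All 10 genes were higher in EV-treated than in sham-treated eosinophils, and none was lower. Nlrc5 rose most, from a mean of 489.7 to 1514 normalized counts, and the other 9 rose by between 0.31 (Tapbp) and 0.74 (Tap1) on the log2 scale. The test was edgeR's quasi-likelihood test with Benjamini-Hochberg adjustment over 13498 genes, and genes with an adjusted p below 0.01 were called. In that test 12.1% of all genes were called higher and 11.6% lower, and at an unadjusted p under 0.05 the shares of all genes were 21.6% higher and 22.9% lower, 44.5% in all. The 3 EV libraries lay above the 3 Media libraries without overlap for all 10 genes, and this held for 24.8% of all genes. The median log2 fold change was 0.58 over the 10 genes and -0.01 over all genes. Ranked by log2 fold change among all genes, the members stood between the 79th percentile (Tapbp) and the 97.8th (Nlrc5). DESeq2 and limma also called all 10 higher and none lower.

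Of the 10 calls, 6 (H2-K1, H2-D1, B2m, Tap1, Psmb9 and Nlrc5) stood whichever single library was left out. Without EV replicate 2 or without EV replicate 3, 6 genes were called, and Tap2, Tapbp, Psmb8 and Psmb10 were not. With library totals as the only scaling, the median log2 fold change of all genes moved to -0.16, 7 members were called higher and Tap2, Tapbp and Psmb8 were not, while all 10 fold changes stayed above 0. That scaling called 1036 genes higher and 2342 lower, against 1632 and 1572 with TMM scaling, so that the sizes below are relative to the bulk of genes. Before any such scaling, the 10 genes together took between 0.344% and 0.379% of all counts in the Media libraries and between 0.435% and 0.474% in the EV libraries.

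**Figure D2:**
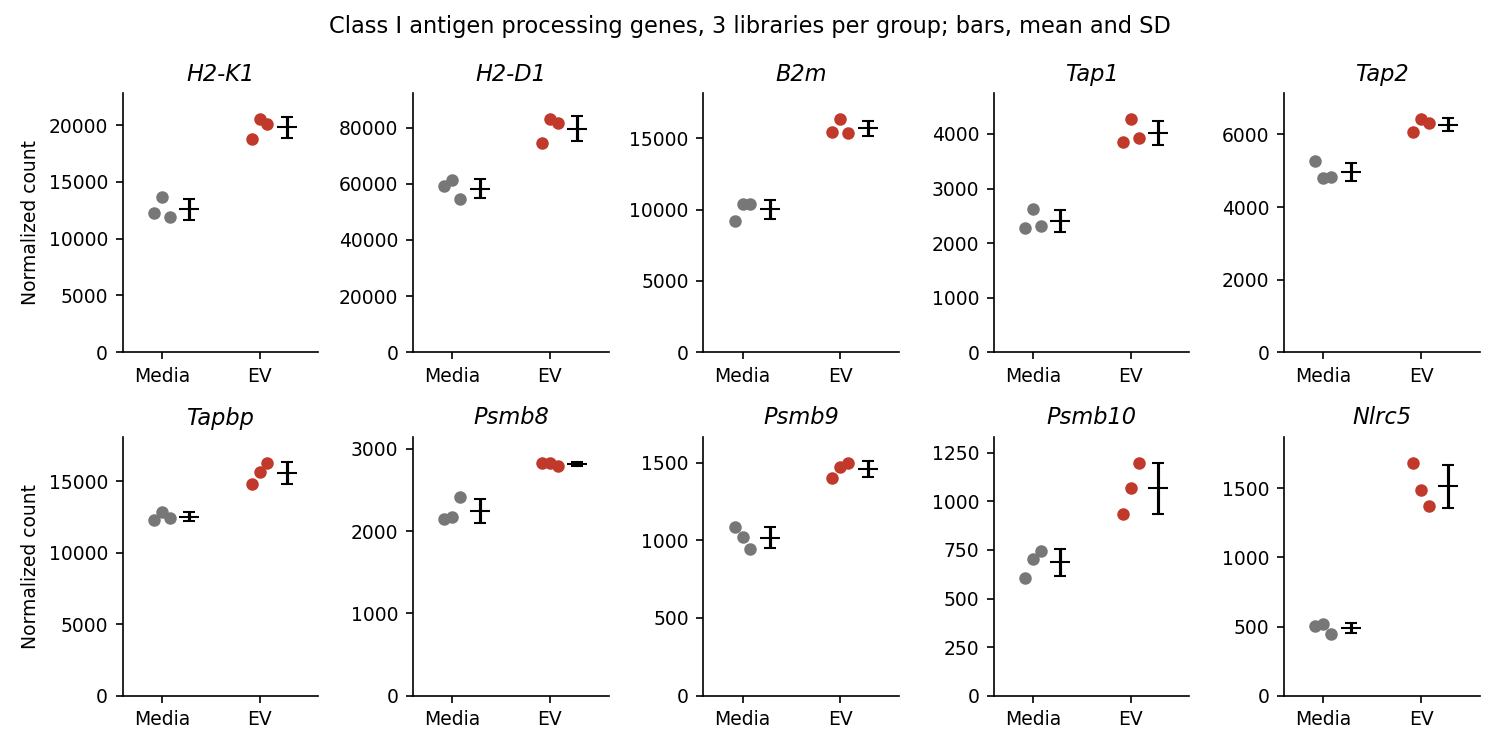
Normalized counts (y axis, from 0, with a separate scale for each gene) of the 10 genes in the 3 Media (gray) and 3 EV (red) libraries, with the mean and SD beside each group. In every panel the 3 EV libraries lie above the 3 Media libraries, and the widest gap relative to the Media level is that of Nlrc5.

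Nlrc5, the transactivator, had normalized counts of 503.7, 519.6 and 445.9 in Media replicates 1, 2 and 3, and of 1683, 1485 and 1374 in EV replicates 1, 2 and 3. The lowest EV library was above the highest Media library by more than the spread within either group. Its log2 fold change was 1.63 (SE 0.11, edgeR adjusted p = 2.191e-06). Its 2 group means were 489.7 ± 38.8 and 1514 ± 157 (SD, n = 3). It was also the lowest of the 10 genes per length, at 64.6 normalized counts per kilobase of transcript in Media and 199.8 in EV.

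H2-K1 encodes the K heavy chain. Its normalized counts were 12240, 13639 and 11874 in the Media libraries and 18771, 20505 and 20137 in the EV libraries. The groups were well apart, with a log2 fold change of 0.65 (SE 0.066, edgeR adjusted p = 3.84e-05). H2-D1, the D heavy chain and the most abundant of the 10 genes per length, had 59059, 61251 and 54527 normalized counts in Media and 74409, 82897 and 81572 in EV. The lowest EV library was again above every Media library, and the log2 fold change was 0.45 (SE 0.061, edgeR adjusted p = 0.0002838). Salmon had to divide some reads between these genes and their relatives, since 22.8% of the 31-base words in H2-K1 transcripts and 26.9% of those in H2-D1 transcripts also occur in transcripts of other genes, so that the split of reads is uncertain. The words shared between these 2 genes were 11.1% of those in H2-K1 and 13.8% of those in H2-D1.

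B2m encodes the light chain that every class I heavy chain needs to reach the cell surface, and it shares no 31-base word with another gene. It had 9214, 10405 and 10428 normalized counts in Media and 15463, 16335 and 15374 in EV. The log2 fold change was 0.65 (SE 0.064, edgeR adjusted p = 3.085e-05), the same to 2 decimals as that of H2-K1. The ratio of B2m to the summed H2-K1 and H2-D1 counts within a library, which needs no scaling between libraries, was -2.82 ± 0.14 in Media and -2.66 ± 0.07 in EV on the log2 scale (SD, n = 3). The libraries overlapped, and the difference of 0.16 had an exact two-sided permutation p of 0.2 (adjusted over 5 ratios, 0.2).

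Tap1 and Tap2 form the peptide transporter. Tap1 had 2273, 2628 and 2305 normalized counts in Media and 3860, 4268 and 3920 in EV, a log2 fold change of 0.74 (SE 0.077, edgeR adjusted p = 4.392e-05). Tap2 had 5256, 4802 and 4834 in Media and 6081, 6417 and 6319 in EV, a log2 fold change of 0.34 (SE 0.061, edgeR adjusted p = 0.001727). Both were higher in all 3 EV libraries, with a narrower gap for Tap2. The log2 ratio of Tap1 to Tap2 within a library was -1.21, -0.87 and -1.07 in Media and -0.66, -0.59 and -0.69 in EV. This ratio did not overlap between the groups and differed by 0.40 (exact two-sided permutation p = 0.1, the smallest that 3 against 3 can give; adjusted over 5 ratios, 0.125).

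Tapbp, which bridges TAP and the empty heavy chain, had 12330, 12894 and 12408 normalized counts in Media and 14799, 15675 and 16301 in EV. Its log2 fold change of 0.31 (SE 0.056, edgeR adjusted p = 0.001604) was the lowest of the 10. Of the 31-base words in Tapbp transcripts, 26.9% also occur elsewhere, 22.1% in the overlapping Gm19412, and for Tap2 the share was 14.3%, so that both counts depend in part on how reads were assigned.

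Psmb8, Psmb9 and Psmb10 encode the 3 catalytic subunits of the immunoproteasome. Psmb8 had 2153, 2170 and 2410 normalized counts in Media and 2829, 2823 and 2791 in EV, a log2 fold change of 0.33 (SE 0.067, edgeR adjusted p = 0.003638). This was the least stable call of the 10, and it passed the threshold after 2 of the 6 omissions of a library, with adjusted p-values from 0.0026 to 0.0193 over the 6. Psmb9 had 1084, 1023 and 944.1 in Media and 1403, 1474 and 1498 in EV, a log2 fold change of 0.52 (SE 0.081, edgeR adjusted p = 0.0007091). Psmb10 had 608.2, 702.2 and 747.3 in Media and 933.1, 1071 and 1199 in EV, a log2 fold change of 0.64 (SE 0.12, edgeR adjusted p = 0.002051). Psmb10 had the widest spread of the 3 relative to its mean, and its lowest EV library was still above its highest Media library.

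The constitutive subunits that these 3 replace did not rise. Psmb6, the counterpart of Psmb9, fell from 1927 ± 336 to 1228 ± 171 normalized counts (SD, n = 3; log2 fold change -0.65, SE 0.14, edgeR adjusted p = 0.004857), a call that stood in 1 of the 6 omissions of a library, that of Media replicate 1. Psmb7, the counterpart of Psmb10, had a log2 fold change of -0.27 (edgeR adjusted p = 0.02854) and Psmb5, the counterpart of Psmb8, one of -0.04 (edgeR adjusted p = 0.6975). Of the 31-base words in Psmb5 transcripts, 71.7% also occur in other transcripts, 59.8% in Gm3375, so that its count is uncertain. None of the 3 was called higher by edgeR, DESeq2 or limma, and none had an unadjusted p under 0.05 in that direction.

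Within each library, the ratio of immunoproteasome to constitutive subunit was higher in EV for all 3 pairs. The log2 ratio of Psmb8 to Psmb5 was 0.28, 0.24 and 0.33 in Media and 0.64, 0.65 and 0.66 in EV, a difference of 0.37. The log2 ratio of Psmb9 to Psmb6 was -0.51, -1.03 and -1.19 in Media and 0.44, 0.13 and 0.20 in EV, a difference of 1.17. The log2 ratio of Psmb10 to Psmb7 was -1.25, -1.09 and -1.19 in Media and -0.47, -0.26 and -0.11 in EV, a difference of 0.90. No pair overlapped between the groups. Each of these 3 differences had the smallest exact two-sided permutation p that 3 against 3 can give, 0.1 (adjusted over 5 ratios, 0.125), so that this test cannot reach 0.05. These ratios compare estimated counts that are not divided by transcript length, so that their change and not their level can be read.

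**Figure D3:**
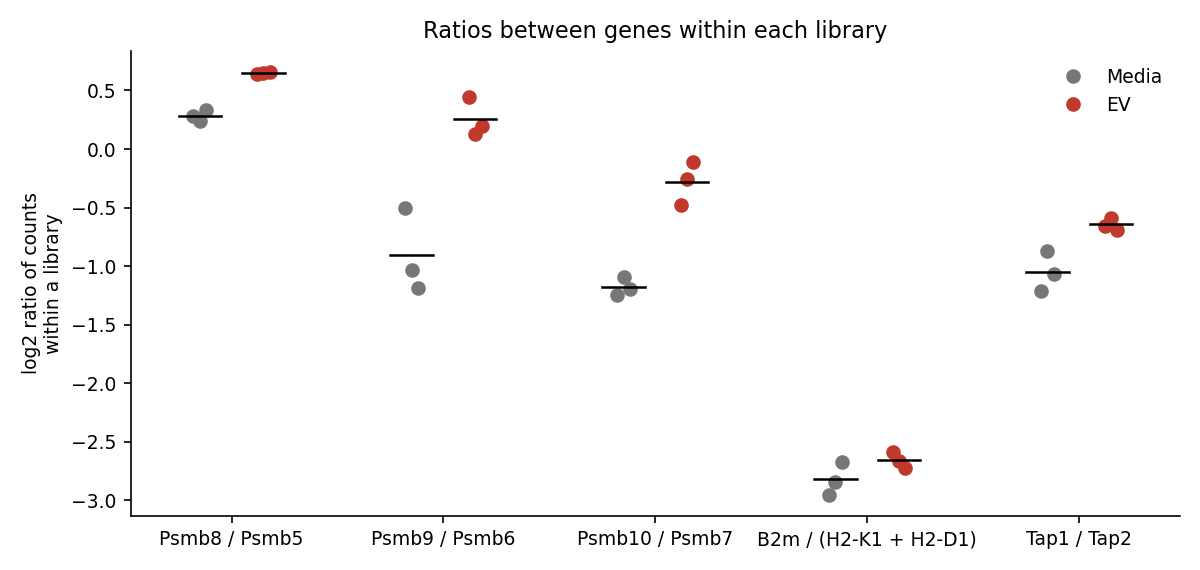
The log2 ratio of estimated counts within each library (y axis) for 5 pairs of genes or sums, in Media (gray) and EV (red) libraries, with a line at each group mean. The 3 immunoproteasome pairs and Tap1 to Tap2 do not overlap between the groups, with differences from 0.37 to 1.17, and B2m to H2-K1 plus H2-D1 overlaps.

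Per kilobase of transcript, the order of the 10 genes was the same in both groups. In the Media libraries the normalized count per kilobase was 27726 for H2-D1, 11646 for B2m, 7773 for H2-K1, 4329 for Tapbp, 1442 for Tap2, 1379 for Psmb8, 813.4 for Tap1, 752.3 for Psmb9, 523.2 for Psmb10 and 64.6 for Nlrc5. Tap2 and Psmb8 overlapped between libraries, as did Tap1 and Psmb9, and the other neighbors did not. In the EV libraries the levels per kilobase ran from 37881 for H2-D1 to 199.8 for Nlrc5, with Tap2 at 1822, Psmb8 at 1729, Tap1 at 1360 and Psmb9 at 1079, and no neighbors overlapped. The cells held far more RNA per length for the displayed molecule than for the transporter or the immunoproteasome under both treatments.

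Of 13 tested genes for other class I heavy chains of the MHC, most of them nonclassical, 5 were called higher, none lower and 8 neither. Over all genes, 12.1% were called higher and 11.6% lower. The median log2 fold change of the 13 was 0.62 (all genes, -0.01). At an unadjusted p under 0.05 the counts were 8 higher and 2 lower (all genes, 21.6% and 22.9%), and DESeq2 and limma called 6 and 5 higher and none lower. H2-Q4, a Qa region gene, rose from 389.9 ± 41.3 to 836.3 ± 28.1 normalized counts (log2 fold change 1.10, edgeR adjusted p = 4.585e-05). H2-T24, a T region gene, rose by 0.79 (edgeR adjusted p = 5.49e-05) and H2-Q5 by 0.79 (edgeR adjusted p = 0.004588) on the log2 scale. H2-T23, which encodes Qa-1, the ligand of the NKG2A receptor, rose from 6319 ± 796 to 9686 ± 408 (log2 fold change 0.62, edgeR adjusted p = 0.000335), and H2-T22 rose by 0.50 (edgeR adjusted p = 0.002668). H2-M3, which presents formylated peptides and shares the spaced motifs shown above, had a log2 fold change of -0.63 (edgeR adjusted p = 0.09139), with overlapping groups. Shared words made up 53% of H2-Q4, 57.8% of H2-Q5 and 67.4% of H2-T22 transcripts, so that these genes cannot be fully separated from their relatives. Without EV replicate 2, without EV replicate 3 or with library totals as the only scaling, 3 of the 13 were called higher, and that scaling called 1 lower.

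Class I-like genes outside the MHC, whose products also pair with B2m, went the other way. Of 4 tested genes, 3 were called lower and none higher (all genes, 11.6% lower and 12.1% higher). For all 4 the EV libraries lay below the Media libraries without overlap (24.7% of all genes did so). Fcgrt, the heavy chain of the neonatal Fc receptor, fell from 310.4 ± 62.5 to 66.8 ± 8.1 normalized counts (log2 fold change -2.21, edgeR adjusted p = 3.474e-05). Hfe, a regulator of iron uptake, fell by 1.42 (edgeR adjusted p = 0.000759) and Mr1, which presents vitamin B metabolites, by 1.24 (edgeR adjusted p = 0.001534) on the log2 scale. At an unadjusted p under 0.05 all 4 were lower (all genes, 22.9%), and DESeq2 and limma each called 3 lower and none higher. Without EV replicate 2 or without EV replicate 3, 2 of the 4 were called lower. Markers of macrophages, cells that also express these genes, were lower in the same libraries (8 of 10 called), and their part in this result was not tested.

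Of 13 genes for peptide trimming and loading chaperones, 5 were called higher and none lower (all genes, 12.1% and 11.6%). The median log2 fold change was 0.20 (all genes, -0.01). Lap3, a leucine aminopeptidase, rose from 661.0 ± 121 to 1734 ± 45.8 normalized counts (log2 fold change 1.39, edgeR adjusted p = 1.462e-05). Calr, the chaperone calreticulin of the loading complex, rose by 0.80 (edgeR adjusted p = 5.107e-05). Erap1, which trims peptides in the endoplasmic reticulum, rose from 1205 ± 118 to 1823 ± 46.5 (log2 fold change 0.60, edgeR adjusted p = 0.0003539). Uggt1, a glycoprotein folding sensor, rose by 0.48 (edgeR adjusted p = 8.558e-05), and the aminopeptidase Npepps by 0.42 (edgeR adjusted p = 0.0004026). Pdia3, the oxidoreductase bound to tapasin, had a log2 fold change of 0.28 and was not called (edgeR adjusted p = 0.04597). At an unadjusted p under 0.05 the list had 7 higher and 2 lower (all genes, 21.6% and 22.9%), and with library totals as the only scaling 5 were called higher and 2 lower. DESeq2 and limma called 6 and 5 higher and none lower.

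Of 10 proteasome activators and assembly factors, 2 were called higher and none lower (all genes, 12.1% and 11.6%). The count called higher was near the share of all genes. Psme2, a subunit of the interferon-inducible PA28 activator, had a log2 fold change of 0.36 (edgeR adjusted p = 0.00255) and Psme4, the PA200 activator, one of 0.50 (edgeR adjusted p = 0.0001273). Psme1, the other PA28 subunit of that pair, had a log2 fold change of 0.25 and was not called (edgeR adjusted p = 0.02016). Of the 10, 1 was called without EV replicate 2, without EV replicate 3 or with library totals as the only scaling. At an unadjusted p under 0.05 the counts were 4 higher and 1 lower (all genes, 21.6% and 22.9%), and DESeq2 and limma called 3 and 2 higher and none lower. The 11 remaining subunits of the 20S core had a median log2 fold change of 0.07, which turned to -0.08 with library totals as the only scaling. Among these 11, edgeR, DESeq2 and limma called none in either direction (all genes with edgeR, 12.1% higher and 11.6% lower). At an unadjusted p under 0.05, 2 were higher and 1 lower (all genes, 21.6% and 22.9%).

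**Figure D4:**
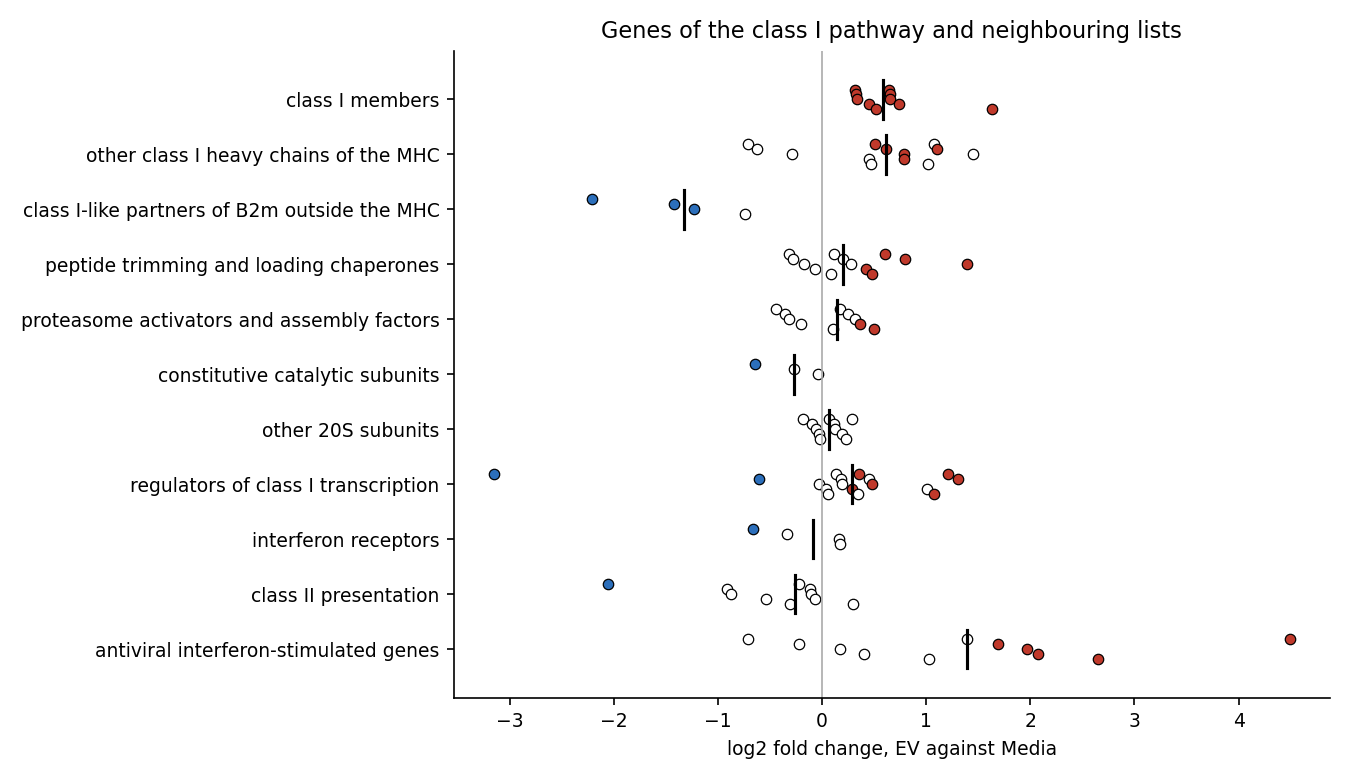
The log2 fold change of EV against Media (x axis) for each tested gene of the class I pathway and neighboring lists, with a vertical bar at each list's median and filled points for genes with an edgeR adjusted p below 0.01 (red higher, blue lower). The 10 class I members all lie above 0, with a median of 0.58, the 20S subunits lie around 0, and the class I-like genes outside the MHC all lie below 0.

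Of 17 regulators linked to class I transcription, 6 were called higher and 2 lower (all genes, 12.1% and 11.6%), with a median log2 fold change of 0.29. The count called lower was near the share of all genes. Without Media replicate 3, EV replicate 2 or EV replicate 3, 4 of the 17 were called higher and 2 lower. Library totals as the only scaling gave the same counts. Irf9, a DNA-binding factor downstream of type I interferon, had 1023, 900.8 and 947.7 normalized counts in Media and 2412, 2363 and 2346 in EV (log2 fold change 1.31, edgeR adjusted p = 7.963e-07). Irf1, an activator of class I genes, had 2575, 2342 and 2085 in Media and 4989, 4923 and 4883 in EV (log2 fold change 1.08, edgeR adjusted p = 4.809e-06). In both of these regulators the groups were far apart relative to their spread. Irf8, a factor of the monocyte and dendritic cell lineages, fell from 949.8 ± 299 to 105.7 ± 45.8 (log2 fold change -3.15, edgeR adjusted p = 5.013e-05), and Nfya, a subunit of the CCAAT-binding factor NF-Y, fell by 0.61 (edgeR adjusted p = 0.0005587). Ciita, the class II counterpart of Nlrc5, was barely detected, with 16, 50 and 11 counts in Media and 31, 85 and 85 in EV, and did not pass the test (log2 fold change 1.01, SE 0.66, edgeR adjusted p = 0.2715).

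None of the 4 interferon receptor genes was called higher by edgeR, DESeq2 or limma (all genes with edgeR, 12.1%). At an unadjusted p under 0.05, 2 were higher and 2 lower (all genes, 21.6% and 22.9%). Ifnar2, a chain of the type I receptor, fell from 3827 ± 111 to 2411 ± 120 normalized counts (log2 fold change -0.67, edgeR adjusted p = 2.876e-05). Of 11 tested antiviral interferon-stimulated genes, 5 were called higher and none lower (all genes, 12.1% and 11.6%), with a median log2 fold change of 1.40. Zbp1, a sensor of Z-form nucleic acids, rose from 44.8 ± 31.2 to 1049 ± 39.8 (log2 fold change 4.49, edgeR adjusted p = 9.309e-06). The signal attenuator Usp18 rose by 2.65 (edgeR adjusted p = 0.0009895), Irf7 by 2.07 (edgeR adjusted p = 2.092e-06), Oasl2 by 1.97 (edgeR adjusted p = 7.335e-05) and the antiviral enzyme Rsad2 by 1.69 (edgeR adjusted p = 0.00185). DESeq2 and limma each called 6 of these 11 higher and none lower. At an unadjusted p under 0.05 the counts were 6 higher and 1 lower (all genes, 21.6% and 22.9%).

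The genes of class II presentation did not move with those of class I. Of 10 tested, none was called higher and 1 lower (all genes, 12.1% and 11.6%), and the median log2 fold change was -0.26. The count called lower was near the share of all genes. The called gene was Ctss, a protease that trims the invariant chain, which fell from 16806 ± 4923 to 4037 ± 1205 normalized counts (log2 fold change -2.06, edgeR adjusted p = 0.0001203). No gene of this list was higher at an unadjusted p under 0.05 and 3 were lower (all genes, 21.6% and 22.9%). DESeq2 and limma called 2 and 1 lower. The fold changes of class I and class II genes were not tested against each other.

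Cell type markers moved with treatment too. Of all genes, 12.1% were called higher and 11.6% lower. The 10 eosinophil markers summed to between 927700 and 1170000 normalized counts in Media and between 1325000 and 1482000 in EV, and 7 of the 10 were called higher. Of 10 macrophage markers, 8 were called lower and 1 (Adgre1, which eosinophils also express) higher, with sums of 45270 to 61820 in Media and 40730 to 45530 in EV. Adgre1 made up a large part of these sums and rose from 21326 ± 309 to 32764 ± 727 normalized counts. The sums therefore understate the fall of the 8 markers called lower. Csf1r, one of these 8, fell from 14319 ± 2979 to 5779 ± 602 (log2 fold change -1.31, edgeR adjusted p = 5.668e-05). Among 7 tested neutrophil markers 5 were lower and 1 higher (sums 19210 to 23000 and 15260 to 19050), and among 6 mast cell or basophil markers 4 were higher (sums 4101 to 5233 and 9890 to 11710). Of 7 dendritic cell markers 6 were listed, 4 tested and 1 lower, with sums of 1175 to 1306 in Media and 452.6 to 485.1 in EV. That fall was carried by Itgae, an integrin chain (1129 ± 40.1 to 358.8 ± 14.8 normalized counts), and the other 3 tested were not called. T cell markers, which would mark RNA from the cells that made the vesicles, summed to between 108.1 and 242.7 in Media and between 126.9 and 188.6 in EV, with 9 of 10 listed and none of 4 tested genes called. At an unadjusted p under 0.05, 1 of these 4 was higher (all genes, 21.6%). It was Il2ra, with 15, 10 and 23 counts in Media and 26, 70 and 61 in EV (edgeR adjusted p = 0.0968). Other activated leukocytes also carry this receptor chain. Cd3d had 35, 58 and 10 counts in Media and 28, 77 and 59 in EV. Cd8a overlapped between the groups, with 44, 75 and 47 counts in Media and 66, 54 and 51 in EV. Cd3g had 0, 3 and 0 counts in Media and 4, 7 and 2 in EV. Cd5 and Cd2 were at 0 in all 3 Media libraries and at 2 or fewer counts in each EV library. Other markers of this list leaned the other way. Cd4 had 0, 28 and 12 counts in Media and 0, 1 and 1 in EV. Lck had 14, 17 and 0 in Media and 1, 1 and 3 in EV, and Gata3 had 12, 7 and 51 in Media and 2, 7 and 20 in EV. B cell markers summed to 152 to 162.2 and 170.6 to 183.4, and the single listed NK cell marker of 4, Klrk1, was at 0 in every library. In bulk RNA, fewer cells of a type and less RNA per cell cannot be told apart. The part of these shifts in the values of the class I and class II genes and of Irf8 was not tested.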

How the data were processed

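Poly(A)-selected RNA from 3 EV-treated and 3 Media-treated (sham) eosinophil samples was sequenced by the authors, who trimmed reads with Cutadapt and quantified them with Salmon. The submitters' processing notes name the mouse build mm10. The authors deposited estimated counts per gene, which were rounded here. The authors also deposited normalized counts per gene, a signal scaled with DESeq2, which served as an alternative. A deposited table of the authors' own fold changes and p-values was not used. Groups came from the sample titles.

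Counts were scaled by TMM, filtered with filterByExpr (13498 of 16254 genes kept) and tested with edgeR 4.0.16 (glmQLFit and glmQLFTest, R 4.3.3), with Benjamini-Hochberg adjustment over all genes kept and a threshold of 0.01. The filter kept all 10 class I genes. Each SE was taken from the F statistic (log2 fold change over its root). Normalized counts were obtained by dividing each library by its TMM size factor, set so that the factors have a geometric mean of 1. Levels per kilobase used the length of 1 GENCODE vM21 transcript per gene. Ratios within a library were compared by exact two-sided permutation. The fits were tested on simulated data. Other scalings, DESeq2 1.42.0, limma 3.58.1 (log2 of the deposited values plus 1), no filter, a replicate block and omission of each library were tried as alternatives.

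Named genes are the 10 class I genes, the genes of each other list past the threshold (at most the 5 with the largest absolute log2 fold change) and 13 further genes chosen by name, of which 1 is not reported here. Csf1r, Adgre1, Cd2, Cd3d, Cd3g, Cd4, Cd5, Cd8a, Gata3, Il2ra, Itgae, Klrk1 and Lck were named after their values were seen. The members and lists were chosen with earlier results of these data known. Protein sequences were not used here, and no promoter is given for Tap2 or Nlrc5.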

Additional observations from a re-analysis of the deposited data

How the results depend on the processing

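All 10 log2 fold changes stayed above 0 under every alternative run, and no member was called lower. Over the 13 alternatives for each of 10 genes, 117 values stayed past the threshold and 13 did not. Leaving out 1 library gave 6 to 10 members called higher, with 6 without EV replicate 2 and 6 without EV replicate 3. Without EV replicate 2 or EV replicate 3, the log2 fold changes of the 4 genes lost stayed between 0.29 and 0.64. Every omission left a fit on 5 libraries, with fewer residual degrees of freedom. Why these omissions lost more calls than the others was not tested. Library totals alone gave 7. RLE, upper quartile scaling, no filter, DESeq2, limma and a threshold of 0.05 each gave 10.

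The labels give both groups the numbers 1 to 3 without saying what a number shares. With the replicate number as a block, 10 members were called higher and 0 lower, and over all genes 1794 were called higher and 1781 lower. The block called 4 of 10 class II genes and 2 of 4 interferon receptor genes lower, against 1 of each without it. Deviations from the group means correlated at 0.117, 0.0846 and 0.0371 within numbers 1, 2 and 3. Every sample but EV replicate 3 correlated best with its own number. These correlations were weak, and they do not settle whether a number marks a shared culture. The main fit left the pairing out because the labels do not state it. The mean of the ratio differences within numbers (the same pairing) equals the difference of group means by construction, 0.37 for Psmb8 to Psmb5. The ratio differences ranged from 0.34 to 0.39, from 1.03 to 1.37, from 0.81 to 1.00, from 0.10 to 0.24 (B2m to heavy chains) and from 0.32 to 0.49 (Tap1 to Tap2) over omissions of 1 library. With 3 libraries per group, the permutation test used for the ratios cannot go below 0.1.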
